A study of Homo sapiens with 6 samples.

Results

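Transcripts of 10 human genes that build or process the cargo of regulated secretory granules were followed in U251 cells after knockdown of TEAD3. They are 6 granin genes (SCG2, SCG3, SCG5, CHGA, CHGB and VGF) and 4 prohormone-processing enzyme genes (PCSK1, PCSK2, CPE and PAM), out of 60612 gene identifiers in the count table. The genes were selected by family, and the family was chosen by the rise of SCG2 in this same comparison. The differences between knockdown and control are therefore given for the 10 genes as a description, with no test read from them. U251 is an established human glioma line, and TEAD3 is a DNA-binding partner of the YAP and TAZ coactivators. Polyadenylated RNA was sequenced from 3 TEAD3 knockdown and 3 normal control samples. Knockdown was by transient transfection, for which the labels give a plasmid vector as well as an siRNA. What the control cells received is not stated. Separate cultures are not stated for the replicates, so every p-value below measures a spread that may be technical.

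Granins are acidic secretory proteins that aggregate with calcium in the trans-Golgi network and help to form dense-core granules, the organelles from which neurons and endocrine cells release peptides on stimulation. Inside the granule, the proprotein convertases PC1/3 (from PCSK1) and PC2 (from PCSK2) cut hormone precursors at pairs of basic residues. Carboxypeptidase E (from CPE) then trims the exposed basic residues, and peptidylglycine alpha-amidating monooxygenase (from PAM) amidates peptides that end in glycine. Several granin genes and PCSK1 are known targets of the cAMP-responsive factor CREB, and the repressor REST keeps many granule genes silent outside neurons and endocrine cells.

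The libraries held between 58344026 and 64808615 counts, at which 3 counts correspond to between 0.0457 and 0.0529 CPM. Levels below are CPM, counts relative to library size scaled by the trimmed mean of M values (TMM). TEAD3 itself was at 4.70, 8.35 and 6.08 CPM in knockdown replicates 1 to 3, against 14.9, 20.3 and 21.0 CPM in control replicates 1 to 3. That is 34.0% of the control level (edgeR adjusted p = 0.0114). Leaving out control replicate 3, knockdown replicate 1 or knockdown replicate 3 ended the TEAD3 call, at log2 fold changes of -1.46, -1.37 and -1.52 (edgeR adjusted p 0.0541, 0.0532 and 0.0938). Of the glioma markers, VIM, CD44, NES and SOX2 were well expressed, while the astrocyte markers GFAP, S100B and AQP4 stayed at or below 1.80 CPM. Of 13 neuronal and neuroendocrine markers 3 had no count in any library, among them the neuroendocrine transcription factor gene INSM1 and the neuronal gene STMN2. Another 7 had enough counts to test. Of these UCHL1 averaged 1164 CPM in the knockdown and 1038 CPM in controls, and TUBB3 257 and 242 CPM. RN7SL1, an RNA without a poly(A) tail, was at 60.8, 14.4 and 79.8 CPM in knockdown replicates 1 to 3, against 14.7, 34.5 and 17.6 CPM in control replicates 1 to 3. The part of this RNA in the results was not tested beyond the covariate given with the processing alternatives.

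SCG2 made the largest difference among the 10 genes. It encodes secretogranin II, the precursor of the neuropeptide secretoneurin, and lies at chr2:223596940-223602503 on the minus strand (GRCh38, GENCODE release 29). Its level was 21.4, 21.5 and 29.3 CPM in knockdown replicates 1 to 3, against 2.64, 3.72 and 2.53 CPM in control replicates 1 to 3. The lowest knockdown library thus stood well above the highest control. The means were 24.1 ± 4.57 CPM in the knockdown and 2.96 ± 0.658 CPM in controls (SD, n = 3 each), a fold of 8.13 with a 95% interval of 5.97 to 11.1 (log2 fold change 3.02, SE 0.203). These are bulk samples, in which a change in the share of cells that express a gene cannot be told apart from a change in RNA per cell.

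CHGB and VGF, the other granin genes with enough counts to test, were also higher in every knockdown library than in any control, by smaller factors. The same separation was found for 11.0% of all tested genes. Neither gene reached an edgeR adjusted p under 0.05 (0.0636 for CHGB and 0.235 for VGF). CHGB encodes chromogranin B, a major granule matrix protein (chr20:5911430-5925361, plus strand). It was at 11.7, 11.4 and 13.5 CPM in knockdown replicates 1 to 3, against 7.73, 7.58 and 6.73 CPM in control replicates 1 to 3. The fitted fold was 1.66 with a 95% interval of 1.32 to 2.09 (log2 fold change 0.73, SE 0.153). VGF encodes a neurotrophin-inducible peptide precursor (chr7:101162509-101165593, minus strand). It was the least abundant tested gene of the set, at 1.41, 1.16 and 1.53 CPM in knockdown replicates 1 to 3, against 0.640, 0.635 and 0.899 CPM in control replicates 1 to 3. Its fold of 1.88 carried the widest interval of the tested genes relative to its size, 1.12 to 3.16 (log2 fold change 0.91, SE 0.339).

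The remaining 3 granin genes were near or at 0. SCG5 encodes 7B2, the chaperone that PC2 needs for its maturation (chr15:32641676-32697098, plus strand). It had 0, 26 and 4 counts in knockdown replicates 1 to 3 and 0, 6 and 0 counts in control replicates 1 to 3, so it was below the filter and was not tested. An exon stretch of 11 bases of SCG5 overlaps the antisense gene SCG5-AS1, and no exon of the other 9 genes overlaps another annotated gene. SCG3, whose product secretogranin III ties granin aggregates to the granule membrane (chr15:51681353-51721031, plus strand), had 0 counts in all 6 libraries. CHGA, the gene of chromogranin A (chr14:92923080-92935293, plus strand), likewise had 0 counts in all 6. A count of 0 allows a level of up to 0.0457 to 0.0529 CPM, depending on the library, and this limit covers counting error only.

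Among the processing enzymes, PCSK1 was higher in the knockdown, PCSK2 was not detected, and the 2 enzymes that act after cleavage were slightly lower. PCSK1 (chr5:96390415-96434143, minus strand) was at 10.0, 8.43 and 12.6 CPM in knockdown replicates 1 to 3, against 4.54, 4.18 and 5.49 CPM in control replicates 1 to 3. The groups did not overlap, and the fitted fold was 2.19 with a 95% interval of 1.61 to 2.96 (log2 fold change 1.13, SE 0.200). PCSK2, the gene of the convertase PC2 (chr20:17226107-17484578, plus strand), had 0 counts in all 6 libraries, as did the granin genes SCG3 and CHGA. CPE (chr4:165361194-165498320, plus strand) was at 27.3, 30.1 and 24.1 CPM in knockdown replicates 1 to 3, against 34.95, 29.7 and 33.7 CPM in control replicates 1 to 3. Knockdown replicate 2 lay above control replicate 2, so the groups overlapped, and the fitted fold was 0.827 with a 95% interval of 0.686 to 0.999 (log2 fold change -0.27, SE 0.123). PAM (chr5:102753981-103031105, plus strand) had the highest CPM of the set and the smallest difference. It was at 196, 192 and 190 CPM in knockdown replicates 1 to 3, against 206, 201 and 216 CPM in control replicates 1 to 3, a fold of 0.927 with an interval of 0.81 to 1.06 (log2 fold change -0.11, SE 0.0881).

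**Figure D1:**
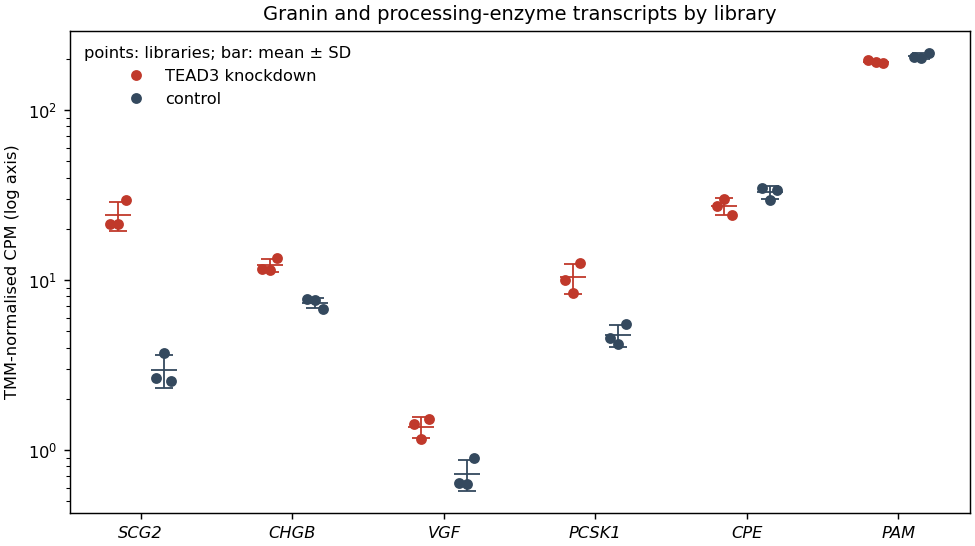
TMM-normalised CPM on a log axis for the 6 genes of the set that could be tested, with one point per library and bars for mean ± SD (n = 3 per group). SCG2, CHGB, VGF and PCSK1 sit higher in all 3 knockdown libraries than in any control, while CPE overlaps between the groups and PAM is slightly lower.

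Of the 10 genes, 6 had enough counts to be tested, with at least 36 counts in each library, and 4 did not. The edgeR quasi-likelihood test called 2 of the 6 at an adjusted p under 0.05, SCG2 and PCSK1, both higher, and none lower. At an unadjusted p under 0.05, 4 were higher and 1, CPE, was lower, and DESeq2 and limma-voom called none lower. Over all 17723 tested genes the test called 0.655%, which was 0.451% higher and 0.203% lower. At the unadjusted threshold the share of all tested genes was 15.6%, made up of 8.15% higher and 7.43% lower, and the counts of related genes below are read against it. In 4 of the 6 the knockdown libraries all lay above the controls, a pattern found for 11.0% of all tested genes. In 1, PAM, they all lay below, as for 10.6% of all tested genes. Because this comparison was used to choose the set, nothing is read from these shares. The count of called genes fell to 1, SCG2 alone, without control replicates 1 and 3 and without knockdown replicates 1 and 3, where PCSK1 had log2 fold changes of 1.10, 1.25, 1.16 and 0.96. It was 3 without control replicate 2, where CHGB joined at a log2 fold change of 0.75. Whichever library was left out, the log2 fold change of SCG2 stayed between 2.86 and 3.22, that of CHGB between 0.65 and 0.78, that of VGF between 0.82 and 1.10 and that of PCSK1 between 0.96 and 1.26.

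**Figure D2:**
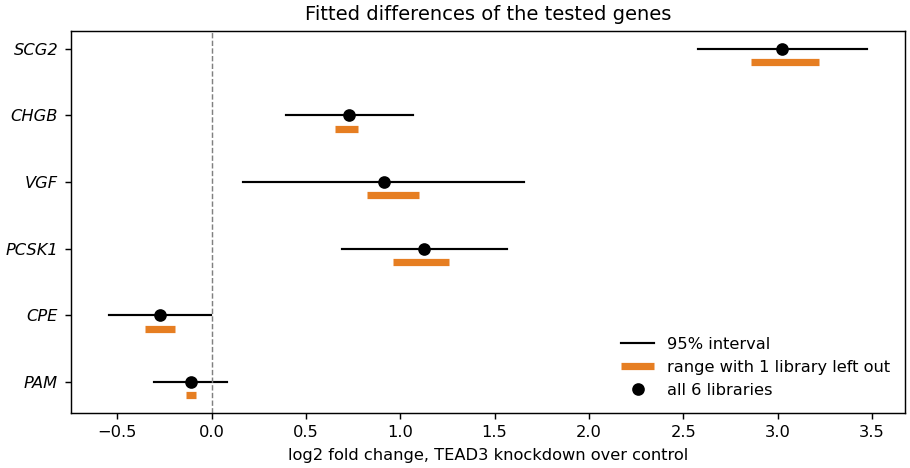
Log2 fold change of TEAD3 knockdown over control for the 6 tested genes, with the 95% interval of the fit as a line and the range obtained by leaving out each library in turn as a bar under it. SCG2 stands at 3.02 and PCSK1, VGF and CHGB between 0.73 and 1.13, while CPE and PAM lie just below 0.

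Levels were then compared between genes per length, as RPKM (CPM per kilobase of merged exons). In the knockdown PAM averaged 21.8, CPE 9.18, SCG2 8.85, CHGB 2.69, PCSK1 1.95 and VGF 0.505 RPKM. In controls PAM averaged 23.5, CPE 11.1, CHGB 1.62, SCG2 1.09, PCSK1 0.893 and VGF 0.268 RPKM. SCG2 thus stood behind CHGB in controls, ahead of it in the knockdown, and overlapped CPE there: its knockdown libraries lay between 7.87 and 10.8 RPKM and those of CPE between 8.14 and 10.2. In controls the ranges of SCG2 (0.931 to 1.37 RPKM) and PCSK1 (0.787 to 1.04 RPKM) overlapped, so those neighbours in the order did not differ beyond their spread. All other neighbours in both orders were separated. The 6 granin genes summed to 12.1 ± 1.94 RPKM in the knockdown and 2.99 ± 0.297 RPKM in controls (SD, n = 3 each). SCG2 made up 71.8%, 71.6% and 75.2% of this sum in knockdown replicates 1 to 3, against 33.3%, 41.2% and 33.9% in control replicates 1 to 3. This share is formed within each library and does not depend on how libraries are scaled. The sum and the share contain the SCG2 values by which the family was chosen, so nothing further is read from them.

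The sequence upstream of these genes is a property the selection did not use. RefSeq windows (GRCh38.p14) were matched for 8 of the 10 genes, with 12 start sites in all. SCG2 and CHGB were not among them. The 250 bases before each start were searched on both strands for the cAMP response element (CRE), TGACGTCA, which reads the same on both strands. It was found before CHGA, before VGF and before 1 of the 2 starts of PCSK1. Of all 35116 windows in the table, 1.65% hold it. The 3 windows that hold the full element are shown. With no window for SCG2 or CHGB, the element cannot be set against the differences of the set, and its part in them was not tested. Each is written 5′ to 3′ on the strand of the gene, with the element in capitals.
VGF, chr7:101165570-101165819, minus strand: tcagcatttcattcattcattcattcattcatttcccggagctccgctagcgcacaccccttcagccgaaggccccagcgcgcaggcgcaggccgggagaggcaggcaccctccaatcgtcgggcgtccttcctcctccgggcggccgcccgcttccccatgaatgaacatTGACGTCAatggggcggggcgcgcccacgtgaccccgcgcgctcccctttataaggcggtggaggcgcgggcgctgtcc
PCSK1, chr5:96433249-96433498, minus strand: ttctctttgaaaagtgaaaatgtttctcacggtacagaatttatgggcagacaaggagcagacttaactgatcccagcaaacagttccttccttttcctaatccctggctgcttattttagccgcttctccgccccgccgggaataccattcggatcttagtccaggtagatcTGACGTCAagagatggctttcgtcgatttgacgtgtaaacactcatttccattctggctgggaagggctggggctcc
CHGA, chr14:92922900-92923149, plus strand: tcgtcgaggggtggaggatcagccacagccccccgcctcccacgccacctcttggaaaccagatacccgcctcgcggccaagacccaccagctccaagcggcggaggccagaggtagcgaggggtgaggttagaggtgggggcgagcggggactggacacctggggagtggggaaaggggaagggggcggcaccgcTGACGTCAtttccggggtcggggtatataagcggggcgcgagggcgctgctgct

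The element ended 72 bases before the start of VGF, 70 before that of PCSK1 and 47 before that of CHGA. The shorter core TGACG or its complement CGTCA, which the full element contains on both strands, was present for SCG5, CHGA, VGF, PCSK1, PCSK2 and CPE, and in 21.2% of all windows. The window of PCSK1 holds another core ending 45 bases before the start, and that of CPE holds 2 cores and no full element. A 6-letter TEAD motif, GGAATG or its complement CATTCC, was in the window of SCG3 and in none of the other 7 genes with a window. It was in 11.9% of all windows. These are matches of letters in short windows, and no binding was measured here.

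The rest of the secretory apparatus was examined through lists of related genes. Neither of 2 granin-like genes was called. PCSK1N, which encodes the PC1/3 inhibitor precursor proSAAS, was at 9.36, 8.17 and 9.68 CPM in knockdown replicates 1 to 3, against 5.78, 10.1 and 9.09 CPM in control replicates 1 to 3, with overlapping groups (log2 fold change 0.13, edgeR adjusted p = 0.838). GNAS, whose locus also yields the granin-like protein NESP55, averaged 746 ± 86.8 CPM in the knockdown and 904 ± 65.3 CPM in controls (log2 fold change -0.28, edgeR adjusted p = 0.255). Gene-level counts do not resolve the products of the GNAS locus. GNAS was the 1 gene of the pair with an unadjusted p under 0.05, and DESeq2 and limma-voom also called neither.

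Of 7 other proprotein convertase genes 6 were tested and edgeR called none, with none at an unadjusted p under 0.05 and none called by DESeq2 or limma-voom. FURIN, the general convertase of the Golgi, was at 116 ± 14.8 CPM in the knockdown and 114 ± 24.4 CPM in controls (log2 fold change 0.02, SE 0.152, edgeR adjusted p = 0.972). MBTPS1, the site-1 protease that cleaves SREBP, was at 116 ± 7.56 and 128 ± 4.67 CPM in knockdown and control libraries, and PCSK7 at 37.9 ± 3.49 and 40.2 ± 5.89 CPM. MBTPS1 had a difference of -0.14 and PCSK7 one of -0.08 on the log2 scale (edgeR adjusted p 0.541 and 0.821). The 6 log2 fold changes ran between -0.60 and 1.00, with the top value from PCSK6 at 0.653 and 0.328 CPM in knockdown and control libraries. Their median was -0.09, where that of all tested genes was -0.0012.

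Among other enzymes that trim or modify peptides, edgeR called 1 of 11 tested genes lower and none higher. Over all tested genes it called 0.203% lower and 0.451% higher. CPA4, a carboxypeptidase gene, was at 67.0, 105 and 74.8 CPM in knockdown replicates 1 to 3, against 152, 168 and 133 CPM in control replicates 1 to 3 (log2 fold change -0.88, SE 0.159, edgeR adjusted p = 0.0367). Leaving out control replicate 1 or 3 ended its call, at log2 fold changes of -0.88 and -0.96 (edgeR adjusted p 0.107 and 0.0859). So did leaving out knockdown replicate 1 or 3, at -0.75 and -0.81 (edgeR adjusted p 0.165 and 0.261). The lysosomal protease gene CTSB averaged 785 ± 4.88 CPM in the knockdown and 637 ± 41.5 CPM in controls (0.30, edgeR adjusted p = 0.158). CTSL, which encodes another lysosomal protease that can cut prohormones, averaged 372 ± 25.8 and 336 ± 17.9 CPM in knockdown and control libraries (0.14, edgeR adjusted p = 0.508). RNPEP, an aminopeptidase gene, averaged 238 ± 17.6 and 285 ± 25.3 CPM (-0.26, edgeR adjusted p = 0.259). At an unadjusted p under 0.05 the list held 2 higher and 2 lower genes, and DESeq2 called 2 higher. The median log2 fold change was 0.0009.

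Genes of granule biogenesis, sorting and exocytosis were detected in good number but not called. Of 33 genes 24 were tested and edgeR called none, against 3 higher and 2 lower without adjustment of p at the same threshold, 1 higher by DESeq2 and none by limma-voom. The unadjusted share over all tested genes was 8.15% higher and 7.43% lower. The most abundant were ATP6AP1, a proton-pump accessory subunit (453 ± 34.5 CPM in the knockdown, 453 ± 73.0 CPM in controls, log2 fold change 0.00), RAB2A (119 ± 7.56 and 128 ± 11.0 CPM, -0.10) and SYT11 (119.8 ± 1.99 and 126 ± 4.79 CPM, -0.07). Their edgeR adjusted p were 0.998, 0.685 and 0.762. STX1A, a plasma-membrane syntaxin gene chosen after its values were seen, was at 28.9, 32.2 and 27.7 CPM in knockdown replicates 1 to 3, against 15.9, 21.6 and 21.6 CPM in control replicates 1 to 3 (0.59, edgeR adjusted p = 0.0978). SNAP25, its SNARE partner and chosen in the same way, was at 3.24, 4.31 and 4.73 CPM against 6.69, 5.23 and 7.14 CPM (-0.63, edgeR adjusted p = 0.196). The list median was -0.12, and 7 of 24 log2 fold changes were above 0. Exons of STX1A overlap BUD23 on the opposite strand, so its counts are uncertain without a stated strand setting. The same holds for GNAS, PCSK6, PCSK7, RNPEP, NUCB2, EP300, SIN3A, REST, CREB1, SYP, UCHL1, VIM, CD44, GFAP, ACSL3, MRPL44, CUL3, CA9, H4C14, H4C15 and IDO1, whose exons overlap a gene on the opposite strand. TUBB3, PCSK6 and EP300 share exon bases with a gene on the same strand, where no strand setting could separate the reads.

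Some peptide precursors that a granule would carry were not detected. Over the whole table, 31092 of 60612 gene identifiers had 0 counts in all libraries. Of 41 prohormone, neuropeptide and secreted peptide genes, 17 had 0 counts in all libraries, among them POMC, NPY, SST, CCK and TAC1, and 15 were tested. Of these edgeR called 1 higher and none lower, and 14 were not called. The stress-induced gene GDF15 averaged 182 ± 20.8 CPM in the knockdown and 126 ± 7.44 CPM in controls (log2 fold change 0.53, edgeR adjusted p = 0.0582). NUCB2, which encodes the precursor of nesfatin, averaged 103 ± 3.13 and 101 ± 11.5 CPM in knockdown and control libraries (0.03, edgeR adjusted p = 0.93). STC1, a secreted glycoprotein hormone gene, averaged 66.0 ± 7.89 and 53.6 ± 3.74 CPM (0.30, edgeR adjusted p = 0.245). ADM, the precursor of adrenomedullin and chosen after its values were seen, was at 21.2, 18.6 and 25.3 CPM in knockdown replicates 1 to 3, against 11.5, 14.05 and 13.9 CPM in control replicates 1 to 3 (0.72, edgeR adjusted p = 0.0636). In this list 13 of 15 log2 fold changes were above 0, with a median of 0.28, and 8833 of all 17723 tested genes were above 0. Without adjustment of p, 5 were higher and none lower at the same threshold, which 8.15% of all tested genes passed as higher and 7.43% as lower. DESeq2 called 3 higher and limma-voom 1, and neither called one lower.

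**Figure D3:**
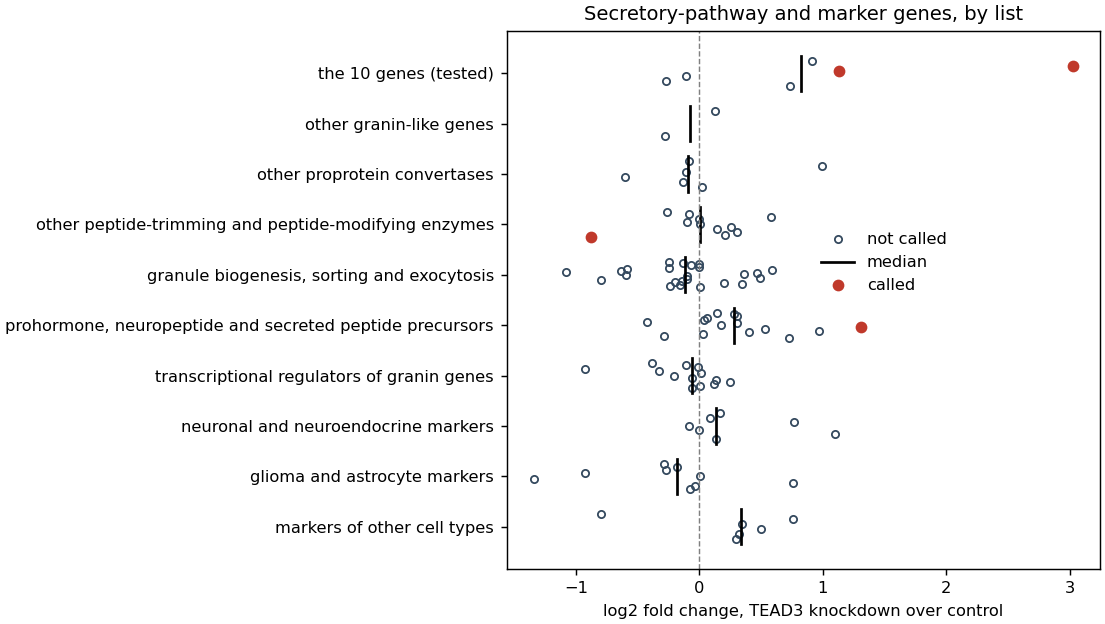
Log2 fold change of TEAD3 knockdown over control for every tested gene of the 10-gene set and of 9 related lists, with filled points for genes called by edgeR and a vertical bar for each list's median. Outside the set 2 genes are called, CPA4 at -0.88 among the trimming enzymes and 1 higher gene among the precursors, and the other lists hold open points only.

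Known transcriptional regulators of granin genes were not called. Of 16 genes 13 were tested and edgeR called none, while 1 higher and 2 lower had a p under 0.05 before adjustment, with 1 lower by DESeq2 and none by limma-voom. The 3 most abundant were EP300, a coactivator gene (50.0 ± 7.17 CPM in the knockdown, 49.5 ± 3.26 CPM in controls), CRTC2, a CREB coactivator gene (44.6 ± 4.42 and 46.6 ± 4.77 CPM), and SIN3A, a corepressor gene (38.6 ± 3.32 and 50.4 ± 3.85 CPM). On the log2 scale they differed by 0.01, -0.06 and -0.39 (edgeR adjusted p 0.978, 0.864 and 0.143). REST, the gene of the repressor, was at 29.7, 25.9 and 27.0 CPM in knockdown replicates 1 to 3, against 33.9, 25.2 and 29.8 CPM in control replicates 1 to 3 (-0.11, edgeR adjusted p = 0.758). CREB1 was at 40.8, 37.4 and 38.8 CPM against 42.9, 34.3 and 39.5 CPM (0.00, edgeR adjusted p = 0.994). REST and CREB1 were named after their values were seen. Transcript levels do not measure the activity of these factors, and the activity was not tested.

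Markers of neuronal and neuroendocrine cells were read beside the granins. Of 13 markers 7 were tested and edgeR, DESeq2 and limma-voom called none, with 1 higher and none lower at p under 0.05 before adjustment. Their summed level was 1660, 1585 and 1419 CPM in knockdown replicates 1 to 3, against 1414, 1428 and 1383 CPM in control replicates 1 to 3, most of it from UCHL1 and TUBB3. The marker with p under 0.05 before adjustment was GAP43, at 1.60 ± 0.256 CPM in the knockdown and 0.744 ± 0.172 CPM in controls. Its log2 fold change was 1.10 (edgeR adjusted p = 0.156). SYP, the synaptophysin gene and chosen after its values were seen, was at 1.08, 0.921 and 1.56 CPM in the knockdown and at 0.610, 0.846 and 0.633 CPM in controls (log2 fold change 0.77, edgeR adjusted p = 0.353). The 10 glioma and astrocyte markers summed to between 4431 and 4995 CPM in the knockdown and between 5363 and 5935 CPM in controls, mostly VIM, and none of the 9 tested was called by edgeR, DESeq2 or limma-voom, while 1 higher and 3 lower had p under 0.05 before adjustment. Before adjustment 8.15% of all tested genes were higher and 7.43% lower at that p. The 8 markers of other cell types, mostly COL1A1, summed to between 15.3 and 17.7 CPM in the knockdown and between 10.3 and 14.9 CPM in controls, with none of the 6 tested called by the 3 tools and 1 higher at an unadjusted p under 0.05. The part of these shifts in the granin values was not tested.

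Genes near SCG2 on chromosome 2 were read in the same fit. Of 10 other protein-coding genes that start within 1 Mb of SCG2, 8 were tested, and edgeR called 1 higher and none lower. Over all tested genes it called 0.451% higher and 0.203% lower. Before adjustment FARSB was also higher at p under 0.05, and KCNE4 and MRPL44 were lower, where 15.6% of all tested genes passed in either direction. SERPINE2, which encodes the protease inhibitor protease nexin 1 and starts 437 kb from SCG2, was at 119, 120.2 and 120.0 CPM in knockdown replicates 1 to 3, against 77.4, 78.5 and 82.8 CPM in control replicates 1 to 3. Its log2 fold change was 0.59 with SE 0.0899 (edgeR adjusted p = 0.0169). Leaving out control replicate 1 or 3 ended that call, at 0.57 and 0.62 (edgeR adjusted p 0.0684 and 0.0967). So did leaving out knockdown replicate 1, 2 or 3, at 0.60, 0.59 and 0.59 (edgeR adjusted p 0.0991, 0.061 and 0.15). The nearest tested gene, AP1S3, differed by 0.06 on the log2 scale (edgeR adjusted p = 0.951). KCNE4, the nearest on the other side, differed by -0.45 (edgeR adjusted p = 0.16). The others, FARSB, ACSL3, WDFY1, MRPL44 and CUL3, lay between -0.24 and 0.21, and MOGAT1 and FAM124B were below the filter.

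**Figure D4:**
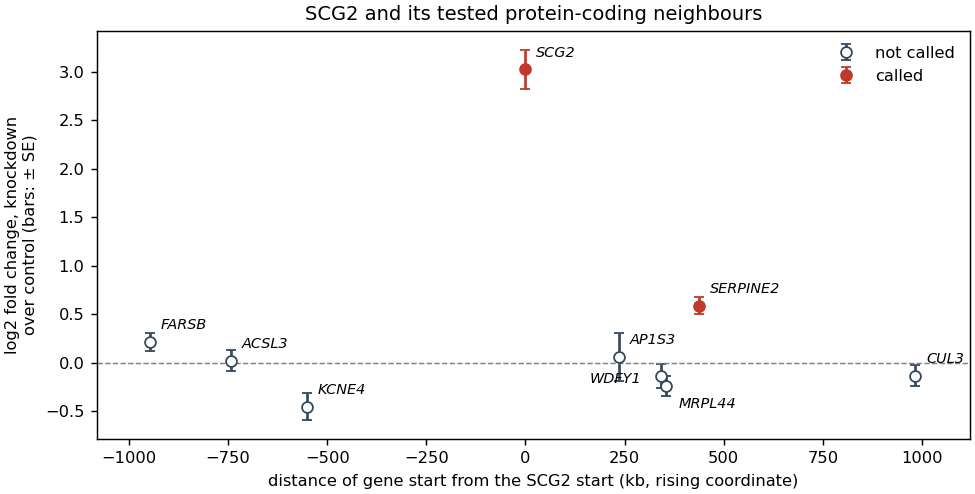
Log2 fold change of TEAD3 knockdown over control (bars, ± SE) for SCG2 and its 8 tested protein-coding neighbours, against the distance in kilobases of each gene start from that of SCG2. SCG2 stands at 3.02, SERPINE2 at 0.59, and the 7 open points lie between -0.45 and 0.21.

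The profiles of SCG2 and PCSK1 over the 6 libraries were set against those of 12578 other genes with a symbol and a mean log2 CPM of at least 1. Likeness was the root-mean-square difference of centred log2 CPM, a description with no test. The nearest to SCG2 was CA9, a carbonic anhydrase gene, at 0.507, followed by the histone genes H2AC6 (0.575), H4C14 (0.612) and H4C15 (0.639) and the long non-coding gene LINC02154 (0.698). H4C14 and H4C15 are near-identical histone gene copies whose reads the counting could split, and most histone transcripts lack a poly(A) tail. CA9 was at 13.3, 9.32 and 17.2 CPM in knockdown replicates 1 to 3, against 1.83, 4.60 and 2.61 CPM in control replicates 1 to 3. For PCSK1 the nearest were SLC3A2, an amino acid transporter subunit gene, at 0.149, CGA, which encodes the alpha subunit of the glycoprotein hormones, at 0.158, LURAP1L at 0.165, RND3 at 0.173 and IDO1 at 0.182. CGA was at 5.97, 5.95 and 6.93 CPM in knockdown replicates 1 to 3, against 3.11, 2.59 and 2.85 CPM in control replicates 1 to 3. Within the set, VGF lay nearest to PCSK1 at 0.141 and CPE nearest to PAM at 0.134, while SCG2 was at 0.993 or more from every other tested gene. Centred values carry the difference between knockdown and control, and the rise of SCG2 chose the family. Nothing is therefore read from its distances.

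**Figure D5:**
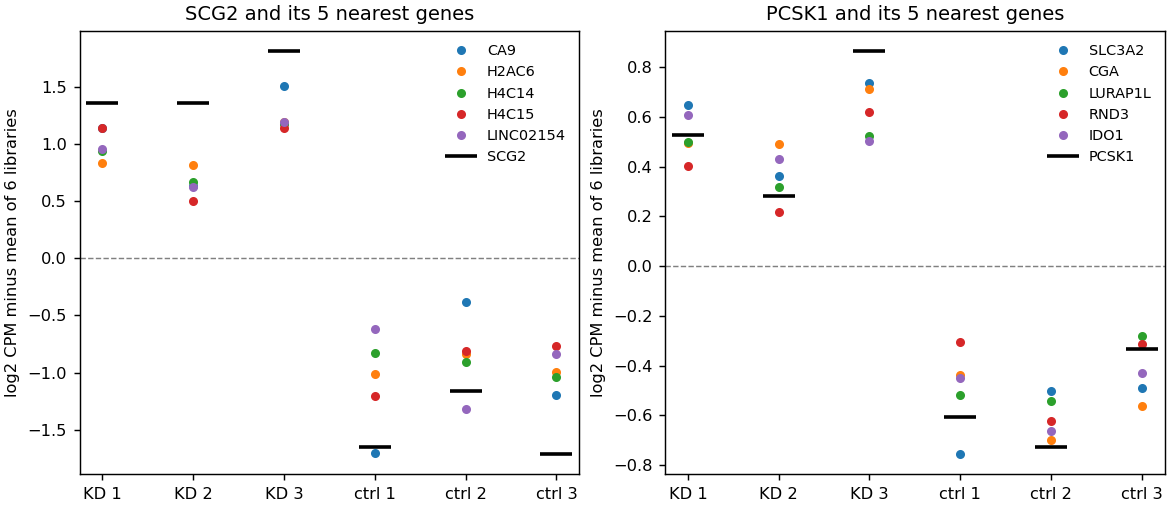
Centred log2 CPM (log2 CPM minus the mean of the 6 libraries) in the 3 knockdown (KD) and 3 control (ctrl) libraries for SCG2 and PCSK1, drawn as black bars, and the 5 genes nearest to each, drawn as points. The nearest gene is 0.507 from SCG2 and 0.149 from PCSK1, and most points beside SCG2 lie nearer to 0 than its bars.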

How the data were processed

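RNA-seq counts of 3 TEAD3 knockdown and 3 control samples of U251 cells were used. The authors deposited whole-number counts per Ensembl gene, unscaled. The submitters' processing notes list HISAT2 2.0.4, cutadapt 1.9, edgeR, DESeq2 and StringTie 1.3.4d, and the build GRCh38. Which tool counted, its strand setting, the annotation release and the treatment of multi-mapping reads are, in the sources used here, not given, so genes with overlapping exons are uncertain. Symbols matched 60401 of 60612 identifiers. Gene positions and merged exon lengths came from GENCODE release 29 and promoter windows from RefSeq.

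Genes were tested with the edgeR 4.0.16 quasi-likelihood F test (R 4.3.3, TMM, filterByExpr minimum of 10 counts, two-sided, Benjamini-Hochberg over 17723 genes), with group as the only term. A gene is called at an adjusted p under 0.05. SE is the size of the log2 fold change over the square root of F. The procedure was tested on simulated data, with changes placed in genes above the lowest levels. It recovered 36% of 1.5-fold changes, 78% of 2-fold changes and 100% of 4-fold and 8-fold changes. A gene that is not called may thus still differ by 1.5-fold or 2-fold. Recovery at the lowest levels, such as those of VGF, SYP and PCSK6, was not simulated. Named genes are the 10, every called gene and the 3 most abundant of each list, called neighbours within 1 Mb of SCG2 and the 5 nearest profiles; others were chosen after their values were seen. A few genes that this rule names are not reported here. The genes and lists were chosen with earlier results of these data known. Alternatives were other scalings, filters and tests (DESeq2 1.42.0, limma 3.58.1 voom, robust dispersions), a replicate block and leaving out each library; 3 corrections were added after seeing the data.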

Additional observations from a re-analysis of the deposited data

How the results depend on the processing

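No log2 fold change changed sign under the 18 alternatives. With upper-quartile scaling, DESeq2 size factors, library totals and limma-voom, all 32 results kept their call, or their count within 1.5 times. All-gene calls were 31 with no filter, 872 with DESeq2, 63 with the replicate block, 197 with robust dispersions, 564 after correcting for length and GC and 22 with the covariate for RNAs without a poly(A) tail, against 116, and between 20 and 589 with 1 library left out. The share of calls in the higher direction, 69.0% in the fit reported, was 46.5% with the length and GC correction, 44.0% without control replicate 2, 56.0% with DESeq2 and between 62.4% and 83.9% otherwise. Of the 10 genes, 1 was called with no filter and 1 with the covariate, against 2, and between 1 and 3 with a library left out. In both, PCSK1 lost its call (edgeR adjusted p of 0.112 and 0.249). Related-list calls, 2 in the fit reported, were 0 with no filter, 4 with the stricter filter, 8 with DESeq2, 4 with robust dispersions, 5 after the same correction, 0 with the covariate, 1 with that correction and the block, and between 0 and 5 with 1 library left out. CHGB was called with the stricter filter, DESeq2, robust dispersions and the length and GC fit (adjusted p of 0.0491, 0.00106, 0.0399 and 0.0241). No filter and the covariate also ended the calls of TEAD3 and CPA4, and the covariate that of SERPINE2 (edgeR adjusted p of 0.0993). Over 11551 protein-coding genes, centred log2 CPM correlated with GC content at -0.13, 0.18 and 0.015 in knockdown replicates 1 to 3 (Spearman). In control replicates 1 to 3 the correlations were -0.55, 0.67 and -0.22. The cause of the changes in calls, and the part of GC content in them, was not tested. Same-numbered samples did not deviate together (correlations of 0.0056, -0.017 and 0.0083), and 2 of 6 samples correlated best with their own number. With the replicate block 2 of the 10 genes and 2 related genes were called. SCG5, SCG3, CHGA and PCSK2 had too few or no counts to compare, and VGF had the fewest counts of the tested genes of the set.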
